A study of Caenorhabditis elegans with 6 samples.

Results

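The abu genes of Caenorhabditis elegans take their name from transcripts activated when the unfolded protein response is blocked. Described here are 6 of the 21951 genes in the count table, chosen by identifier: abu-1 (AC3.3), abu-6 (C03A7.7), abu-7 (C03A7.8), abu-8 (C03A7.14), abu-10 (F35A5.3) and abu-11 (T01D1.6). Their products are secreted proteins rich in glutamine and asparagine that form part of the pharyngeal cuticle, the extracellular lining of the feeding organ. That lining is shed and rebuilt at each molt, and transcripts of several abu genes are known to rise and fall with the molting cycle. The copies resemble each other in sequence, and the sources used here do not say how reads that match several copies were counted.

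Whole wild-type animals, collected as gravid young adults, gave 3 control libraries and 3 libraries from animals exposed to 100 mM ethyl carbamate for 24 h. Ethyl carbamate, or urethane, is a carcinogen found in fermented foods and is also an anaesthetic. The names of all 6 libraries carry the prefix EV, whose meaning is not stated, so a condition shared by both groups may be among what it stands for. The sources used here name neither the strain, the number of animals per library nor the stage at which exposure began. Gene counts per library ranged from 19026133 to 22416213 reads. Levels are given as CPM, read counts relative to library size after libraries were scaled by the trimmed mean of M values, as mean ± SD with n = 3 per group. A change was called at an adjusted p under 0.05 in the quasi-likelihood test of edgeR over 14705 tested genes, of which 76.3% were called, 40.0% higher and 36.3% lower after exposure. With libraries scaled by size alone the share of calls in the upward direction went from 52.4% to 67.9%, and the median change over the tested genes shifted by 0.19 on the log2 scale. RNA of whole gravid animals includes that of the embryos inside them, and in such RNA a change in the number of cells of a type cannot be told apart from a change in RNA per cell.

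The 6 genes split in direction. The 3 most abundant members, abu-8, abu-11 and abu-10, rose 5.71-fold to 7.21-fold, and abu-1 rose 2.34-fold from a low level. Transcripts of abu-6 and abu-7, which sit side by side on chromosome V, were rare in the controls and rarer still after exposure. These last genes had too few reads for the filter on low counts, so 4 of the 6 members were tested. Those 4 were called higher, set against 40.0% of tested genes. The control and exposed libraries did not overlap for any of the 6 members. Among tested genes, which leave out abu-6 and abu-7, 77.8% had no overlap in either direction. Of all tested genes 40.8% had all exposed libraries above all controls and 37.1% had them below. The filter asked for 0.474 CPM in 3 libraries. abu-8, abu-10 and abu-11 met it in both groups, whereas abu-1 met it in 2 control and 3 exposed libraries and so passed through the exposed group. abu-7 also met it in 2 control libraries but in 0 exposed ones, and abu-6 in 1 and 0. For abu-1 and abu-7 the exposed level thus decided whether they were tested. The count of 4 higher among 4 tested is therefore no fair count against the 40.0%.

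**Figure D1:**
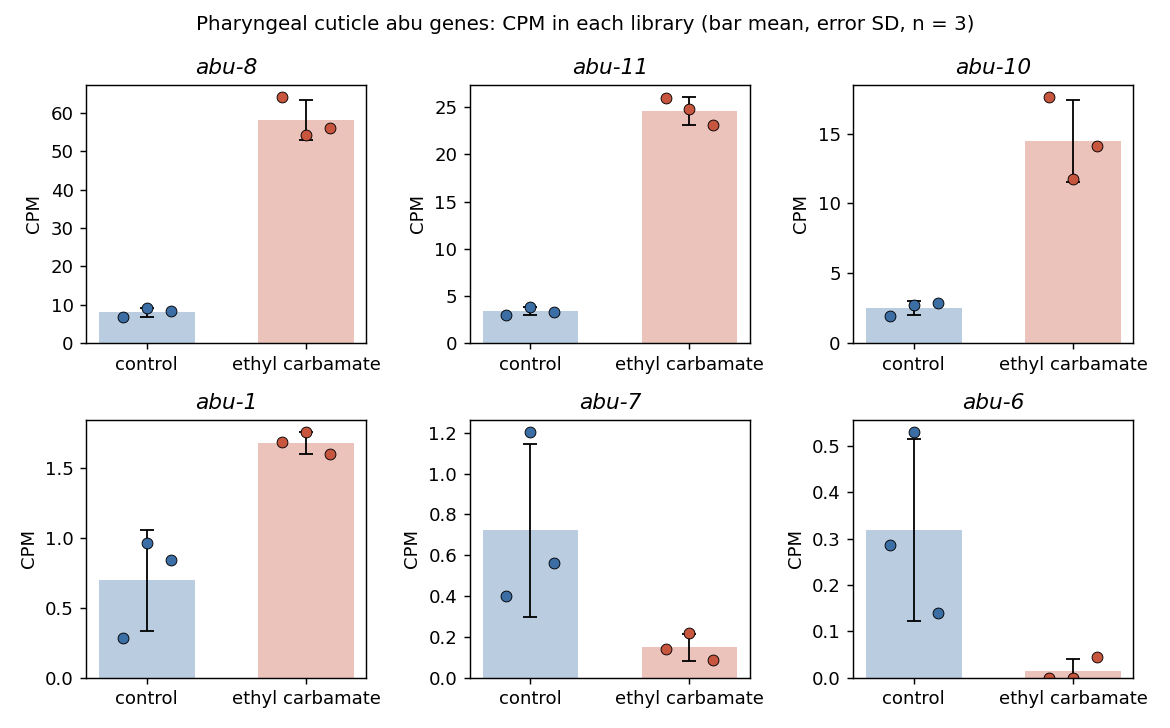
CPM of each of the 6 genes in the 3 control libraries (blue) and the 3 ethyl carbamate libraries (red), with bars at the group mean and error bars of 1 SD; each panel has its own linear axis from 0. The groups are apart in every panel, upward for abu-8, abu-11, abu-10 and abu-1 and downward for abu-7 and abu-6.

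abu-8 lies on the minus strand of chromosome V at positions 5192993 to 5194608, and its transcript in the Ensembl annotation has 3 exons. Coordinates here and below are those of the deposited table, whose genome build is not named in the sources used here. It held 118, 187 and 175 reads in the control libraries and 1368, 1231 and 1262 reads in the exposed ones. Scaled, these were 6.77, 9.01 and 8.21 CPM against 64.1, 54.1 and 56.1 CPM. The lowest exposed library thus lay well above the highest control. This 7.21-fold rise, 2.85 ± 0.09 on the log2 scale (estimate ± standard error), had an edgeR adjusted p of 8.45e-17. Among all tested genes, 3.26% had a log2 fold change at least as large.

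abu-11, on the minus strand of chromosome II at 192531 to 194558 with 4 exons, followed abu-8 closely. The control libraries held 2.98, 3.85 and 3.33 CPM and the exposed libraries 26.0, 24.8 and 23.1 CPM. It had the tightest exposed group of the 3 abundant members, at 24.6 ± 1.45 CPM, and no overlap with the controls at 3.39 ± 0.44 CPM. The rise was again 7.21-fold, or 2.85 ± 0.11 in log2 units (edgeR adjusted p = 2.03e-15).

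abu-10, on the plus strand of chromosome X at 3798179 to 3799741, is annotated with 7 exons. It was measured at 1.95, 2.70 and 2.86 CPM in the controls and at 17.6, 11.7 and 14.1 CPM after exposure. Ethyl carbamate replicate 1 was the highest exposed library for abu-8, abu-11 and abu-10 alike, and control replicate 1 the lowest control for all of them. Relative to its mean, abu-10 had the widest spread of these 3 genes among the exposed libraries, at 14.5 ± 2.96 CPM, yet each exceeded every control. It rose 5.71-fold, by 2.51 ± 0.17 in log2 units (edgeR adjusted p = 2.13e-11).

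abu-1, on the minus strand of chromosome V at 10380339 to 10381823, lies far from the other chromosome V copies and has 2 exons. It gave 5, 20 and 18 control reads and 36, 40 and 36 exposed reads, or 0.287, 0.964 and 0.844 CPM against 1.69, 1.76 and 1.601 CPM. The exposed libraries lay close together and all exceeded the controls, which were spread by the low value of control replicate 1. In log2 units it rose by 1.22 ± 0.33 (edgeR adjusted p = 0.00212), and 19.8% of tested genes had a log2 fold change at least as large. This rise was not found on quantile-normalized FPKM, where limma gave a log2 fold change of −0.05 (adjusted p = 0.782). Here and below, quantile-normalized FPKM stands for quantile-normalized log2(FPKM + 1), and the added 1 by itself shrinks the change of low genes. With 1 added but no quantile step, limma gave 0.55 for abu-1 (adjusted p = 0.0130). A noncoding RNA gene is annotated by Ensembl on the opposite strand within abu-1, and another overlaps one end of abu-6. The strand setting used in counting is not stated, so reads of such pairs cannot be separated.

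abu-7, on the minus strand of chromosome V at 5163396 to 5164759 with 2 exons, had 7, 25 and 12 reads in the controls and 3, 5 and 2 in the exposed libraries. In scaled form the controls stood at 0.402, 1.20 and 0.563 CPM and the exposed libraries at 0.141, 0.220 and 0.0889 CPM. The groups did not overlap, although control replicate 2 held more than the other controls together. Pooled over libraries, abu-7 was 4.92-fold lower after exposure, with a 95% exact (Clopper-Pearson) counting interval of 2.44 to 10.97, and 3.26-fold lower without control replicate 2. Such intervals cover counting error only.

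abu-6, on the same strand at 5160671 to 5161892 with 2 exons, was the rarest member. Its controls held 5, 11 and 3 reads, while ethyl carbamate replicates 1 and 2 held 0 reads and replicate 3 held 1 read. This is a ratio of 21.3 in favour of the controls with a counting interval of 3.38 to 883. The ratio was 13.7 without control replicate 2 and 13.99 without ethyl carbamate replicate 2, and without ethyl carbamate replicate 3 abu-6 was at least 4.69-fold lower when its 0 reads are set to a floor of 3 for the group. When genes were tested without the filter, edgeR called both genes lower, with an adjusted p of 0.000825 for abu-7 and 0.00343 for abu-6. In that fit 24.9% of 21951 genes were called lower. In the authors' deposited table both genes are also lower, with log2 fold changes of −2.33 and −4.36, and the other 4 members are higher by 1.19 to 2.80. That table calls 24.4% of its genes higher and 24.4% lower.

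Because near copies can exchange reads, the counts of the members were also added. The sum of all 6 went from 12.7, 18.3 and 15.9 CPM to 109.5, 92.6 and 95.1 CPM, a 6.34-fold difference in group means. The sum for abu-6, abu-7 and abu-8, the copies from one stretch of chromosome V, went from 9.04 ± 1.65 to 58.3 ± 5.25 CPM, or 6.45-fold. Within that second sum abu-8 took 88.4% of the reads in the controls and 99.7% after exposure. A sum does not depend on which of its own genes a read was given to. Reads exchanged with copies outside a sum would change it, and abu-15 is in neither sum. Reads dropped because they match several copies are missing as well, and the number of exchanged or dropped reads was not tested.

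By FPKM, the authors' fragments per kilobase and per library size, the order of the members in the controls was abu-8 at 5.35 ± 0.72, abu-11 at 2.72 ± 0.34 and abu-10 at 2.01 ± 0.38 FPKM. These 3 did not overlap. Below them lay abu-7 at 0.560 ± 0.33, abu-1 at 0.507 ± 0.26 and abu-6 at 0.278 ± 0.17 FPKM, and these neighbours overlapped in range. After exposure the same leaders stood at 37.5 ± 3.57, 19.04 ± 1.17 and 11.2 ± 2.34 FPKM. Then came abu-1 at 1.18 ± 0.05, abu-7 at 0.112 ± 0.05 and abu-6 at 0.0124 ± 0.02 FPKM, with no overlap between neighbours. abu-8 made up 45.1% to 48.9% of the summed FPKM of the members in the controls and 54.1% to 54.7% in the exposed libraries.

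Whether the tested members rose by different amounts was asked from the log2 ratio of their CPM within each library, for 6 pairs. The ratio of abu-8 to abu-11 was 1.24 ± 0.06 in the controls and 1.24 ± 0.10 after exposure, a difference of 0.0011 (exact two-sided permutation p = 0.9; 0.9 adjusted over the 6 pairs). The ratio of abu-1 to abu-8 went from −3.69 ± 0.76 to −5.11 ± 0.15, with no overlap (exact permutation p = 0.1; adjusted 0.2), and that of abu-1 to abu-11 from −2.45 ± 0.80 to −3.87 ± 0.07 (exact permutation p = 0.1; adjusted 0.2). abu-8 also gained on abu-10, from 1.69 ± 0.15 to 2.02 ± 0.17, again without overlap (exact permutation p = 0.1; adjusted 0.2). The remaining pairs, abu-1 to abu-10 and abu-10 to abu-11, overlapped between groups (exact permutation p = 0.2 for each; adjusted 0.24). With 3 libraries against 3, 0.1 is the smallest p this test can give, so none of these differences can pass 0.05.

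The share of genes that rose depended on their level. Of 2921 tested genes with an average log2 CPM between 0 and 2, where abu-1 lies, 52.9% were called higher. Of 3067 genes between 2 and 4, which include abu-10 and abu-11, 55.3% were called higher. Of 3621 genes between 4 and 6, which include abu-8, 37.6% were. A rise of at least 4-fold by the fitted value was seen for 16.2%, 12.4% and 6.66% of the genes in these bins. The median change in the bins of abu-1 and of abu-8 was 0.66 and −0.04 in log2 units.

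**Figure D2:**
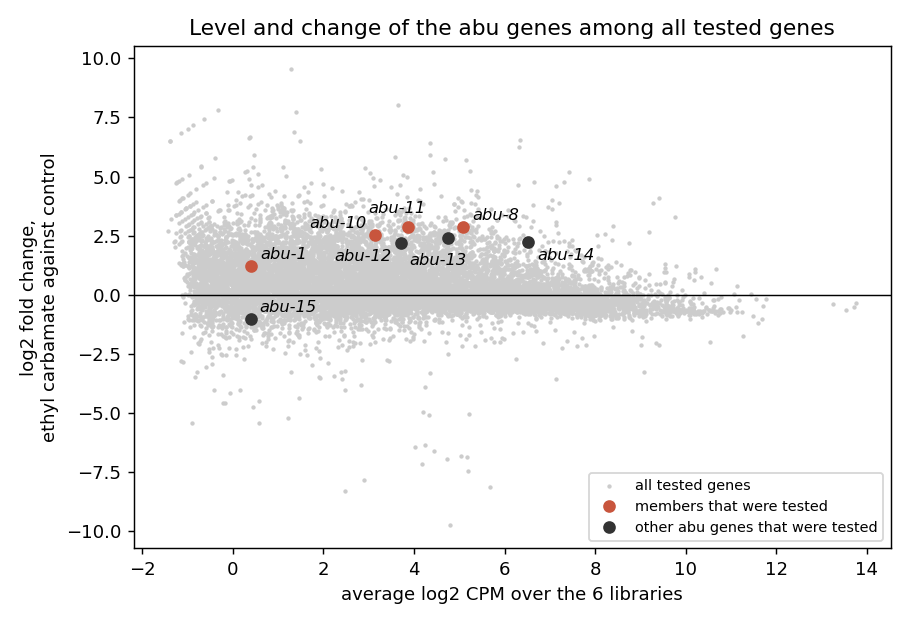
Log2 fold change of each of the 14705 tested genes (grey) against its average log2 CPM, with the 4 tested members in red and 4 other abu genes in black. abu-8, abu-11 and abu-10 lie in the upper part of the cloud between 2.51 and 2.85, abu-1 lies at 1.22, and abu-15 lies below the zero line at −1.02.

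Of 9 further genes with an abu name, 6 were in the count table and 4 were tested. Of these 3 were higher and 1 lower, set against 40.0% and 36.3% of all tested genes. abu-14 (ZK1067.7, chromosome II) rose 4.70-fold from 25.2, 35.9 and 33.7 CPM to 156, 143 and 151 CPM (edgeR adjusted p = 2.00e-16). abu-13 (F57B9.9, chromosome III) went from 8.31 ± 1.82 to 44.4 ± 1.69 CPM, a 5.28-fold rise, and abu-12 (F52D1.3, chromosome X) from 4.51 ± 0.24 to 20.8 ± 1.63 CPM, a 4.61-fold rise. The counted span of abu-14 overlaps another gene on the opposite strand in the deposited table. The Ensembl span of abu-13 overlaps 2 genes on the opposite strand, but its end lies 1160 bases from that of the counted span.

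The exception was abu-15 (C03A7.4), which fell 2.03-fold. It was measured at 1.43, 2.26 and 1.27 CPM in the controls and at 1.17, 0.660 and 0.622 CPM after exposure, so that the highest exposed library lay just under the lowest control. The change of −1.02 ± 0.32 in log2 units had an edgeR adjusted p of 0.00741, and without control replicate 2 the call was lost (−0.73, adjusted p = 0.0758). abu-2 and abu-3, the latter a pseudogene, had 10 and 3 reads over all 6 libraries. abu-4 and abu-5 are listed at 0 FPKM in every library, and abu-9 at 0 except for 0.0408 FPKM in ethyl carbamate replicate 1.

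**Figure D3:**
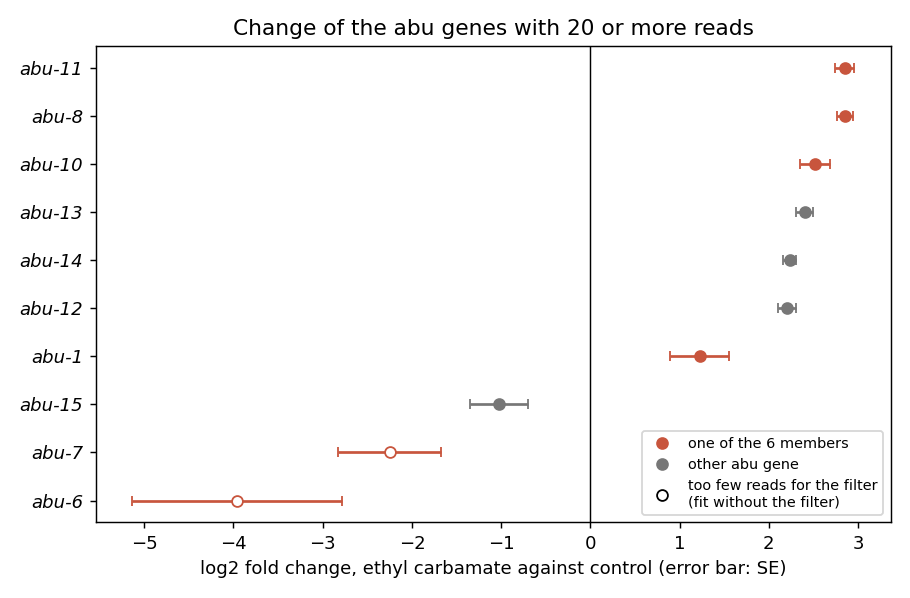
Log2 fold change of ethyl carbamate against control for the 10 abu genes with 20 or more reads over the 6 libraries, with error bars of 1 standard error; the 6 members are red, other abu genes grey, and open symbols come from the fit without the filter on low counts. Of these genes, 7 lie to the right of zero, and abu-15, abu-7 and abu-6 lie to the left.

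The 3 abu genes with lower counts are neighbours. abu-15, on the plus strand at 5158623 to 5159897 of chromosome V, ends 773 bases before abu-6, and 1503 bases separate abu-6 from abu-7. abu-8 lies 28233 bases beyond abu-7 in the same C03A7 interval, with 7 genes between them. Of those genes 3 are members of chemoreceptor families with at most 12 reads each over all libraries. Among the other 4, ugt-51, a UDP-glucuronosyltransferase gene, rose 1.59-fold (0.67 ± 0.10 in log2 units, edgeR adjusted p = 4.56e-06). C03A7.12, C03A7.2 and C03A7.13 were not called, with log2 fold changes of −0.16, −0.10 and −0.02 (edgeR adjusted p = 0.524 to 0.95). C03A7.13 ends 461 bases from abu-8 and stood at 0.816 ± 0.15 CPM in the controls and 0.794 ± 0.17 CPM after exposure. A change in opposite directions was thus seen among abu copies within one interval, with genes between them that did not pass the test.

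**Figure D4:**
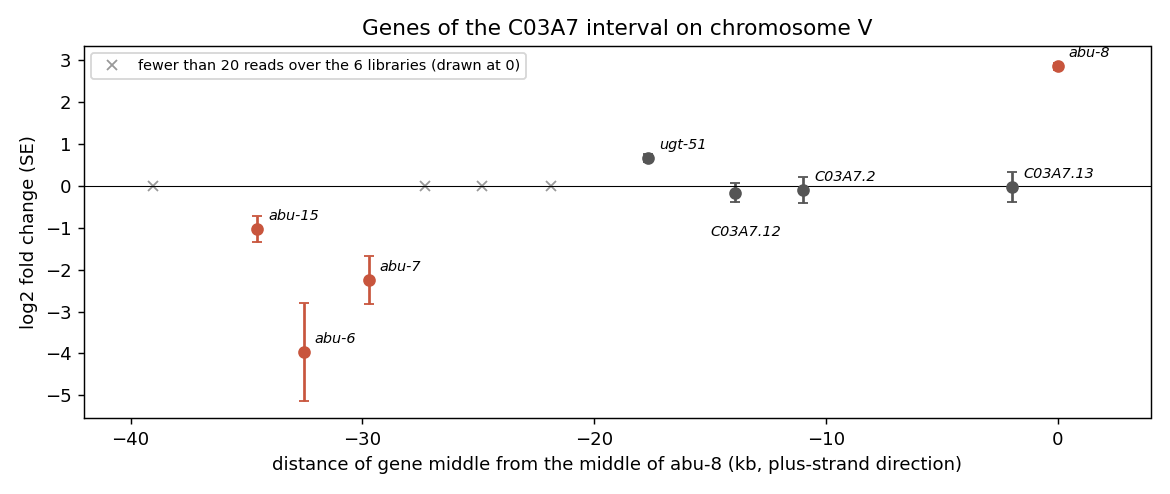
Log2 fold change from the fit without the filter, with error bars of 1 standard error, for the 12 genes of the C03A7 interval, placed by the distance of their middle from that of abu-8 in kb; crosses mark genes with fewer than 20 reads. abu-15, abu-6 and abu-7 lie together on the left below zero, abu-8 lies alone on the right at 2.84, and 3 of the genes between them lie near zero.

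Other components and regulators of the same organ were described from lists. The nematode pharynx also secretes intrinsically disordered proteins, named idpa, idpb, idpc and idpp, into its cuticle. Of 30 such genes tested, 28 rose and 2 fell, set against 40.0% higher and 36.3% lower over all tested genes. Their median change of 1.80 in log2 units stood beside 0.05 for all tested genes. idpb-1 and idpb-2 had control means of 0.368 and 0.203 CPM and passed the filter of 0.474 CPM through the exposed group. idpc-3 passed it through the controls. A gene this low in both groups could not be counted. Quantile-normalized FPKM gave 22 rises and 2 falls among 29, with a median of 0.72. idpp-12 rose 16.7-fold to 12.7 ± 1.23 CPM, and idpc-1, named here after its value was seen, rose from 9.68 to 73.6 CPM. The exceptions were idpc-3, which fell 26.6-fold from 2.54 ± 0.98 to 0.0910 ± 0.05 CPM, and idpp-1, from 6.91 to 0.618 CPM, also named after its value was seen. idpc-3 had 3, 2 and 1 reads in the exposed libraries, and its log2 fold change of −4.73 ranged from −5.15 to −1.89 over the alternatives. idpc-4, idpc-5, idpc-6 and idpc-7, which share the T06E4 interval of chromosome V with idpc-3, were all called higher, with log2 fold changes of 1.97 to 2.74. These were looked at after the idpc-3 value was seen.

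The pqn genes, named for a prion-like domain rich in glutamine and asparagine, are a broad set with members in many tissues. The share of tested genes called higher ran from 15.2% to 55.3% over bins of level, and this list was not matched for level. The 47 pqn genes tested had a median change of 0.27 in log2 units, beside 0.05 for all tested genes. Of these 47 genes 27 rose and 8 fell, set against 40.0% higher and 36.3% lower over all tested genes. Other scalings moved this split, to 35 higher and 4 lower by library size, to 26 and 11 by median ratio, and to 23 and 12 of 45 on quantile-normalized FPKM. The largest rises were those of pqn-73, from 3.74 ± 0.80 to 77.8 ± 3.20 CPM (21.0-fold), and pqn-71, from 1.47 ± 0.42 to 26.0 ± 2.44 CPM (17.3-fold). Chitin is another component of the pharyngeal lining, and chs-2, the chitin synthase gene of the pharynx, rose 3.22-fold to 38.3 ± 1.90 CPM. chs-1, the synthase gene of the eggshell, went the other way, from 525 to 366 CPM, a value named after it was seen. Of the 6 chitin synthase and chitinase genes 4 were called higher and 2 lower, against 3 and 1 on quantile-normalized FPKM. The astacin protease genes nas-6 and nas-7, which act in the pharynx, rose 2.92-fold and 3.05-fold.

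Markers of the cells that make and move the organ were mostly higher as well, set against 40.0% of all tested genes called higher. All 5 pharyngeal muscle genes rose, with a median of 1.72 in log2 units, and their summed level went from 143 to 173 CPM in the controls to 549 to 607 CPM after exposure. Troponin T gene tnt-4 rose 5.20-fold and the myosin heavy chain gene myo-5 rose 3.96-fold. Of 7 gland genes 5 rose and phat-3 fell, with phat-5 up 17.2-fold, and their sum went from 30.5 to 33.8 CPM to 114 to 119.9 CPM. All 6 tested transcription factors of pharyngeal identity rose, among them ceh-22 (8.47-fold) and pha-2 (6.71-fold), with a summed level of 59.3 to 64.9 CPM in the controls and 178 to 182 CPM after exposure. On quantile-normalized FPKM the medians of the muscle, gland and transcription factor lists were 1.30, 0.98 and 1.24 in log2 units. The log2 fold changes of ceh-22 and pha-2 were 1.29 and 1.20 there, against 3.08 and 2.75 from edgeR on counts. These scales differ, since 1 was added to each FPKM and ceh-22 stood at 0.556 FPKM in the controls. The part of the quantile step in the lower values was not tested. ceh-28, the one untested factor, had no reads in the controls; no other gene of these 3 lists was at 0 in a whole group, and the part of such markers in the abu result was not tested. 

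Genes of the molting cycle, with which abu transcripts are known to oscillate, were mostly higher. Of 17 tested 15 rose and 1 fell, set against 40.0% higher and 36.3% lower over all tested genes. The median change of the list was 1.33 in log2 units. From quantile-normalized FPKM, 12 rises and 2 falls were called. grh-1, a Grainyhead factor gene, rose 7.07-fold and mlt-9 rose 6.75-fold, whereas nhr-23, the receptor gene that drives each molt, fell from 63.2 to 52.6 CPM (log2 fold change −0.26, edgeR adjusted p = 0.000134) and was named after its value was seen. Scaling by library size gave no lower call in this list. Furrow collagen genes of the body cuticle went in both directions. dpy-2, dpy-3, dpy-7 and dpy-10 rose, with log2 fold changes of 2.18 to 2.52, and dpy-8 and dpy-9 fell 14.05-fold and 11.8-fold. dpy-8 went from 13.6 ± 1.79 to 0.964 ± 0.19 CPM.

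The stress pathway behind the name of the abu genes had no 2-fold change. Of 13 genes of the unfolded protein response of the endoplasmic reticulum 7 rose and 5 fell, with a median of 0.40 in log2 units, against 6 and 6 on quantile-normalized FPKM. With 40.0% of all tested genes higher and 36.3% lower, this split does not set the list apart. The largest changes in the list were atf-6, a stress sensor gene, up 1.55-fold, and hsp-3, a chaperone gene, up 1.52-fold. atf-6 was not called on quantile-normalized FPKM. The reporter chaperone hsp-4 and the sensors ire-1 and pek-1, named after their values were seen, were lower, with log2 fold changes of −0.39, −0.38 and −0.38. The other called genes of the list are named on the same terms. xbp-1, crt-1, enpl-1, dnj-27 and dnj-7 were higher, with log2 fold changes of 0.60, 0.50, 0.48, 0.48 and 0.40. sel-1 and sel-11 were lower, at −0.41 and −0.35. Receptor genes reported to control abu transcripts did not pass the test: ced-1 stood at 162 and 157 CPM (edgeR adjusted p = 0.326) and octr-1 at 1.77 and 1.73 CPM (edgeR adjusted p = 0.882). Scaling by library size called 1 of this pair higher, and quantile-normalized FPKM called 1 lower.

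Other tissues and stages of the whole animal moved too. Markers were called higher in 4 of 6 cases for body wall muscle, 5 of 6 for intestine, 6 of 7 for neurons and 2 of 4 for epidermis, with medians of 0.59, 0.94, 0.84 and 0.25. The shares over all tested genes were 40.0% higher and 36.3% lower, so the epidermis count lies near them. In body wall muscle 1 marker, tnt-2, was called lower (log2 fold change −0.28, edgeR adjusted p = 3.58e-06). The number called lower in that list was 0 to 2 over 15 alternatives, with 0 on quantile-normalized FPKM. Also lower was the epidermal collagen gene col-19, which fell 4.16-fold from 186 to 44.7 CPM (edgeR adjusted p = 9.52e-18). Both tnt-2 and col-19 were named after their values were seen. Summed levels of the lists went from 1768 to 1922 CPM to 2630 to 2771 CPM for body wall muscle. They went from 1127 to 1228 CPM to 1839 to 2057 CPM for intestine, and from 386 to 398 CPM to 478 to 498 CPM for neurons. For epidermis the sum went from 341 to 360 CPM to 234 to 252 CPM, with col-19 the one tested marker of that list that was lower. All 6 germline markers were lower, with a summed level of 4729 to 5065 CPM in the controls and 2941 to 3038 CPM after exposure. Early embryo markers were lower in 6 and higher in 1 of 7 tested, and their sum went from 27.8 to 35.6 CPM to 16.7 to 18.3 CPM. hch-1, the gene of the hatching enzyme made by late embryos, rose 8.82-fold from 15.1 ± 1.49 to 132 ± 2.83 CPM, and its part in the abu result was not tested. No marker in these lists was at 0 reads over the 6 libraries.

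**Figure D5:**
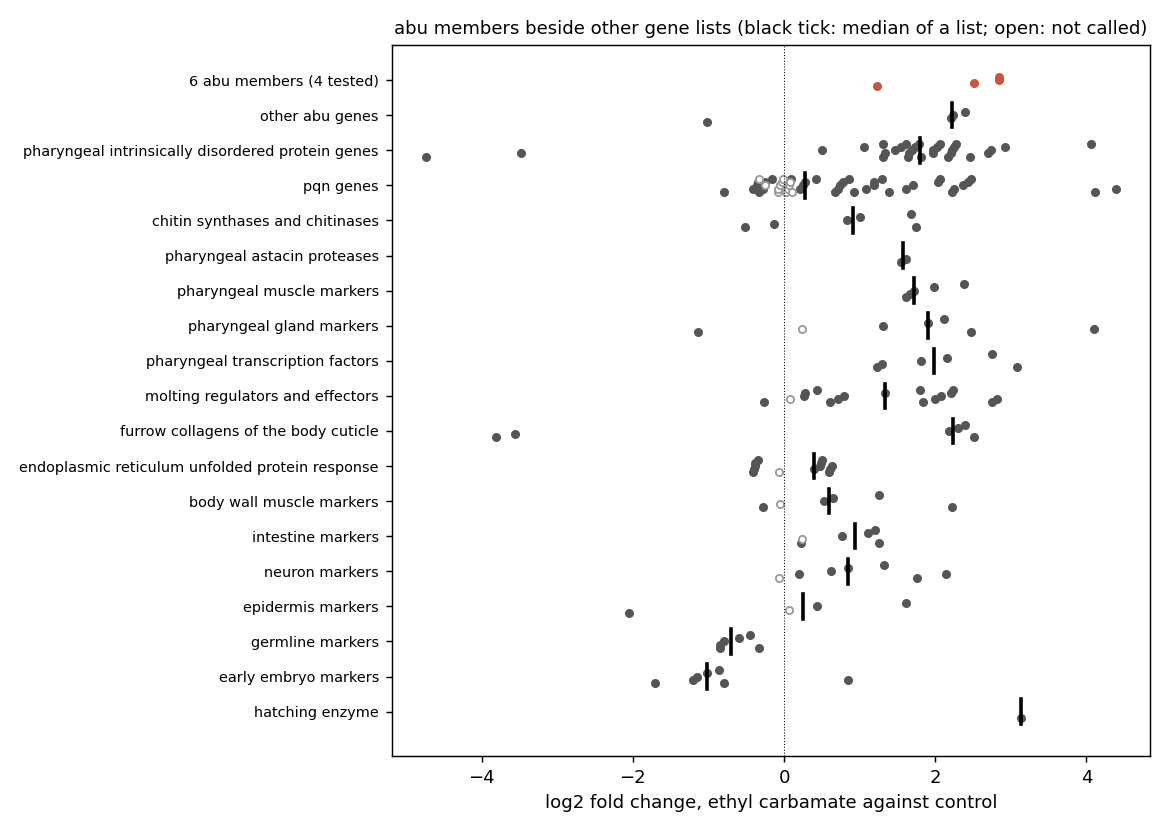
Log2 fold change of every tested gene of 18 lists and of the 4 tested members (red), with a black tick at the median of each list and open symbols for genes that were not called. The idp, pharyngeal muscle and pharyngeal transcription factor lists have medians of 1.72 to 1.99, and the germline and early embryo lists have medians of −0.69 and −1.02.

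The genes whose profile over the 6 libraries was most like the mean of the 4 tested members were found by the Euclidean distance between centred log2 CPM values, among 8157 named genes with a mean of at least 1 CPM. With 2 groups this measure mainly ranks genes by the size of their change. The nearest were mapk-15, osg-1, ram-2, pqn-13 and cutl-8, at distances of 0.125 to 0.203, with rises of 4.85-fold to 5.24-fold. ram-2 was the most abundant, at 59.5 ± 11.3 CPM in the controls and 299.8 ± 27.3 CPM after exposure. By the same measure abu-13 ranked 10, abu-14 ranked 17, abu-12 ranked 214 and abu-15 ranked 7943.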

How the data were processed

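The 6 libraries were assigned to control and ethyl carbamate by their titles. Poly(A) RNA was sequenced in pairs of 150 bases, per the labels' protocols and the design text. Tools listed in the submitters' processing notes are DESeq2 1.20.0, StringTie 1.3.3, HISAT2 2.0.5 and featureCounts 1.5.0-p3; the design text names DEGSeq. The sources used here do not give genome build, strand setting or the handling of multiply matching reads. Deposited by the authors, per the file headers, were read counts, FPKM, a normalized signal (counts divided by 1 factor per library), log2 fold changes and p-values; the deposited signal was not analysed further.

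Counts were fitted across the whole table with edgeR 4.0.16 in R 4.3.3 (TMM scaling, filterByExpr, quasi-likelihood test, group as the only term, two-sided, Benjamini-Hochberg over 14705 genes, threshold 0.05). Standard errors are those that give the test's F. Members below the filter were described by pooled reads. The replicates are stated to be biological. Symbols matched 21580 of 21951 identifiers in RefSeq; exons and overlaps are from Ensembl release 115 (WBcel235).

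Named genes are the members, other abu genes, up to 2 called genes per list with the largest change and at least 1 CPM, and the 5 nearest profiles; others are marked in the text. Members and lists were chosen with earlier results of these data known. Alternatives were other scalings, DESeq2 1.42.0, no filter, a replicate block, and each library left out. They also included limma 3.58.1 on log2(FPKM + pseudocount) with pseudocounts of 0.1 and 1, which understates the change of low genes. Quantile normalization and the FPKM fit without a filter used the pseudocount of 1. Scripts were tested on simulated data. Protein and promoter features were not analysed here. Deposited counts hold whole reads, so the depth per library limits the precision of the rare members.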

Additional observations from a re-analysis of the deposited data

How the results depend on the processing

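All 4 tested members stayed higher under 14 of 15 alternatives and 3 of them under all 15. The log2 fold change ranged from 2.43 to 3.04 for abu-8, 2.08 to 3.04 for abu-11 and 1.55 to 2.70 for abu-10. For abu-1 it was −0.046 on quantile-normalized FPKM, where the cause was not tested, and 0.55 to 1.498 elsewhere. With the filter and all 6 libraries, no tested member was called lower by edgeR or DESeq2. Without the filter on low counts edgeR called 2 lower. On FPKM without a filter limma also called 2, since abu-6 and abu-7 enter both of these tests. In the edgeR fits with 1 library left out the number was 0 to 1, since abu-7 entered 4 of these fits. The sum of the 6 members had a log2 ratio of 2.53 to 2.85 over 8 alternatives, against 2.66. abu-15 lost its call without control replicate 2 (−0.73, edgeR adjusted p = 0.0758). Values of the lists and of the genes named from them were on the same side of the threshold, or within 1.5 times of the main count, in 1043 of 1065 cases, and none reversed. The replicate numbers share no more than a number: deviations of same-numbered libraries had Pearson r of −0.013 to −0.006 across genes, and with the replicate number as a block 4 members were called higher and 0 lower, as without it. Depth limits abu-6 and abu-7 most, with 20 and 54 reads over all libraries.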

Other observations

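Of the 5 tested genes next to abu-1, abu-8 and abu-10, edgeR called 3 higher, set against 40.0% of all tested genes. The other 2, ugt-49 and C03A7.13, did not pass the test. Y47A7.2, which starts 1449 bases from abu-8 on the side away from the C03A7 interval, rose 2.75-fold from 10.1 ± 0.15 to 27.9 ± 1.14 CPM (edgeR adjusted p = 5.91e-13). Beside abu-10, F35A5.5 went from 16 to 83 pooled reads (4.57-fold by the edgeR fit, adjusted p = 0.000221), and F35A5.8 rose 1.21-fold from 25.6 ± 1.92 to 31.0 ± 1.62 CPM. Next to abu-1, the pqn-2 gene had 11 control reads and 8 exposed reads, too few to be tested, and ugt-49 stood at 15.1 ± 1.71 and 16.3 ± 0.78 CPM (edgeR adjusted p = 0.277). The neighbours of abu-11 on either side, T01D1.5 and F48A11.2, had 2 and 10 control reads and 14 and 24 exposed reads and were not tested. These neighbours were chosen by position after the values of the members were seen.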
